A study of Mus musculus with 12 samples.

Results

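The genes described here are 10 transcripts that mark macrophages of the dermis or macrophages driven by IL-4 and IL-13, out of 56923 genes counted in mouse back skin. The members were listed by name: *Retnla*, *Mgl2*, *Clec10a*, *Mrc1*, *Cd163*, *Folr2*, *Lyve1*, *Arg1*, *Chil3* and *Adgre1*. *Retnla* was chosen by its measured counts in the IMQ groups, where it was high in the one labelled *Lcn2*-/-, so its values in every comparison with an IMQ group are given as a description, with no test. The other 9 were listed by name for their known roles, with earlier results of these data known. All 10 had enough reads to be tested.

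Skin RNA came from 12 female mice aged 8 to 10 weeks on the C57BL/6 background, 3 in each of 4 groups. WT control mice were *Lcn2*-intact littermates given vehicle on the shaved back for 6 days, and WT IMQ mice were littermates given 5% imiquimod (IMQ) cream for the same 6 days, a treatment that produces psoriasis-like skin. The control and IMQ groups labelled *Lcn2*-/- received the same vehicle or cream, and are called KO-labelled here for the following reason. *Lcn2*, the gene said to be deleted, was counted in every library: 6.28, 8.64 and 4.57 CPM in the WT control mice, 61.2, 183 and 76.1 CPM in the WT IMQ mice, 10.5, 9.22 and 15.9 CPM in the KO-labelled controls, and 34.3, 29.9 and 49.8 CPM in the KO-labelled IMQ mice. CPM are counts scaled to a common library size after TMM normalization. Counts per gene do not show which part of *Lcn2* the reads came from, so they cannot tell whether the deletion was present. The repository's genotype field says knockdown rather than knockout. The paper lists *Lcn2* among the genes lower in *Lcn2*-/- than in WT IMQ skin. Every direction between genotypes below rests on the labels alone.

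Each library held between 16448226 and 28592110 counts, and 3 counts correspond to between 0.105 and 0.182 CPM. The tissue field says skin, while the extraction text speaks of retina. Summed keratinocyte markers were between 4815 and 50181 CPM in the 12 mice, and summed photoreceptor markers between 0.471 and 2.91 CPM. The labels name no batch. In whole skin, fewer cells of a type and less RNA per cell cannot be told apart.

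Healthy dermis holds resident macrophages that take up debris through scavenger and lectin receptors such as CD163 and the mannose receptor, and a perivascular subset of them carries LYVE1, the folate receptor FOLR2 and the lectins CLEC10A and MGL2. IL-4 and IL-13 signal through IL-4 receptor alpha and STAT6, and in mouse macrophages they induce *Retnla*, *Arg1*, *Chil3*, *Mrc1* and *Mgl2*, a set long used to mark alternative activation. *Arg1* and *Chil3* also respond to inflammatory signals, and *Chil3* is made by neutrophils and monocytes as well. Inflamed skin recruits blood monocytes and neutrophils, and F4/80 (encoded by *Adgre1*) is shared by resident and recruited macrophages.

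The upstream sequences of 4 members follow: *Retnla* and *Mgl2* because their levels dropped furthest with IMQ, *Chil3* because it rose furthest, and *Cd163* because its log2 change in WT skin was near 0. RefSeq sequences (GRCm38.p6) were matched for 6 of the 10 members by symbol, and none was matched for *Arg1*, *Clec10a*, *Lyve1* and *Adgre1*. Each stretch starts 250 bases before the RefSeq start and stops before the first annotated transcript base of the gene. Capitals mark letters that match TTCNNNNGAA (a spacing that STAT6 binds), TTCNNNGAA (the spacing of other STAT proteins), TGANTCA (AP-1) or GAGGAA (PU.1, the macrophage lineage factor), on either strand.
Retnla (chr16:48842359-48842550, plus strand, 192 bases): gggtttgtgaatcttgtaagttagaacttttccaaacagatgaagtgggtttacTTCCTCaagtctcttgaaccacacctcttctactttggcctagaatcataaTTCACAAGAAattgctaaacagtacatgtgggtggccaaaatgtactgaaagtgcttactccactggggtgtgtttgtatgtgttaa
Mgl2 (chr11:70130107-70130328, plus strand, 222 bases): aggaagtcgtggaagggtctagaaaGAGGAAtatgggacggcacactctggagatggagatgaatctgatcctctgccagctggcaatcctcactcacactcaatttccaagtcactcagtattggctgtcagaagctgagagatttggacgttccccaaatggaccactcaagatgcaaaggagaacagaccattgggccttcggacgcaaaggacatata
Chil3 (chr3:106167565-106167814, minus strand, 250 bases): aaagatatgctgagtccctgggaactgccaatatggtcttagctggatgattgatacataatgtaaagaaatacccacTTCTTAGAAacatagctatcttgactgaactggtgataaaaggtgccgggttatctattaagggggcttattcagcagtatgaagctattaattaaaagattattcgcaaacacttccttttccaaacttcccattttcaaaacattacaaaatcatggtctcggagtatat
Cd163 (chr6:124304401-124304650, plus strand, 250 bases): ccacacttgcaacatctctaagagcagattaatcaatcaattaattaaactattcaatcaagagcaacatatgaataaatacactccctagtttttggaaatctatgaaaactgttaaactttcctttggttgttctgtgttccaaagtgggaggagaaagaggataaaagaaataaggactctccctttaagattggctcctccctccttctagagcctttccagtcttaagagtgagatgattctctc
*Retnla* held the spacing that STAT6 binds, TTCACAAGAA, at -145 to -136 from its start, and 4.58% of 32851 RefSeq promoters held that pattern over the same 192 bases. It also held a PU.1-type match at -196 to -191, a pattern found in 18.2% of promoters over the same 192 bases. *Mgl2* held a PU.1-type match at -225 to -220, a pattern found in 20.6% of promoters over the same 222 bases, and none of the other patterns. *Chil3* held TTCTTAGAA, the other STAT spacing, at -172 to -164, against 7.02% of promoters over 250 bases. *Cd163* held none of the 4 patterns in these letters. A match is a run of letters and was not tested as a binding site.

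The member levels fell into 3 sets after IMQ in WT skin. *Mgl2* fell and *Retnla*, which was not tested, was lower in all 3 IMQ mice, *Arg1*, *Chil3* and *Adgre1* rose, and *Mrc1*, *Cd163*, *Folr2*, *Lyve1* and *Clec10a* had WT IMQ levels that overlapped with those of the WT control mice. Of the 9 members that were tested, 3 rose and 1 fell at an adjusted p under 0.05 (edgeR quasi-likelihood test, Benjamini-Hochberg over 18529 genes), where 14.2% of all genes tested rose and 14.3% fell. The median log2 fold change over the 9 tested members was 0.15, beside -0.02 over all genes tested, and it was -0.37 with *Retnla* counted in.

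**Figure D1:**
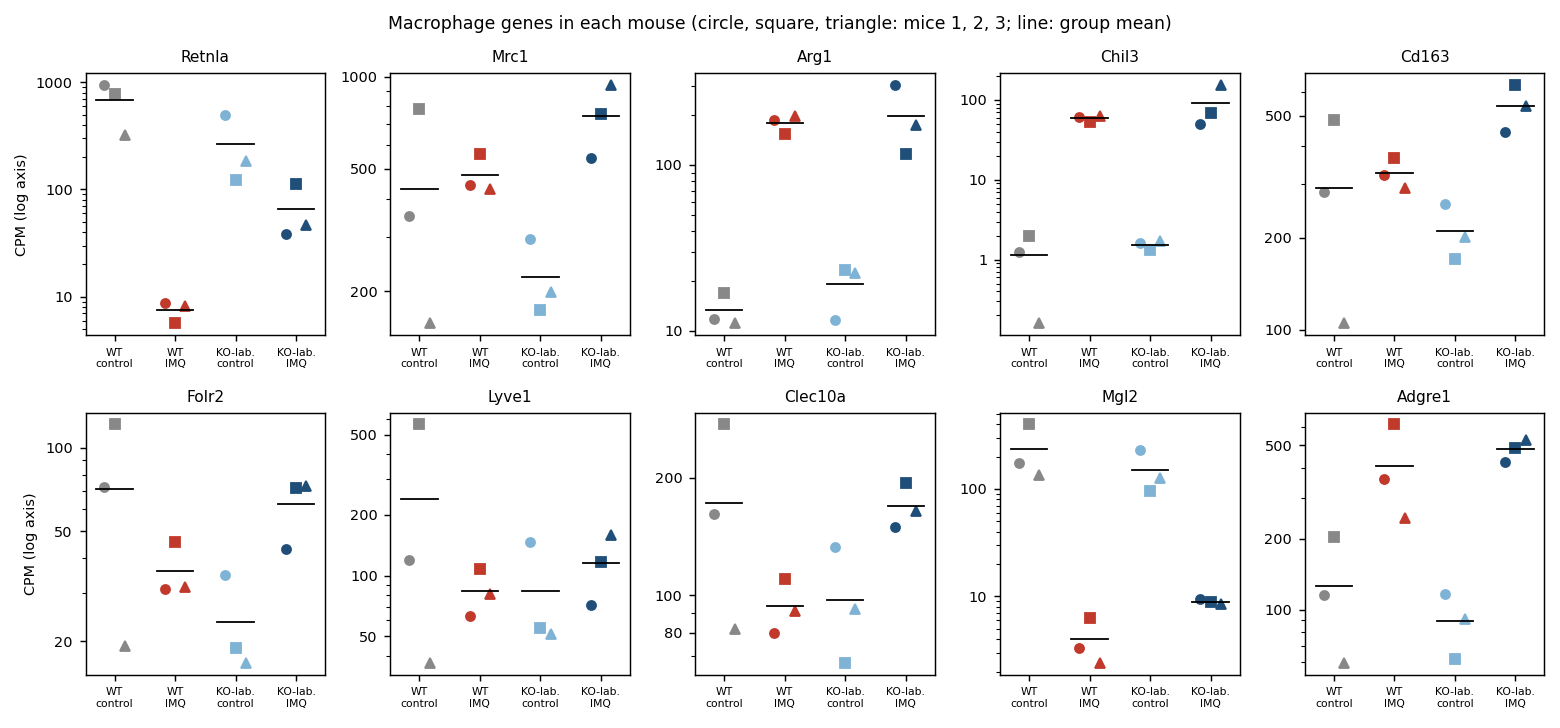
Level of each of the 10 genes in each of the 12 mice, as CPM on a log axis, by group, with circles, squares and triangles for mice 1, 2 and 3 and a line at the group mean. Retnla and Mgl2 are low in all 3 WT IMQ mice and Arg1 and Chil3 are high in all 6 IMQ mice, while for the receptors in the other panels WT control mouse 2 is the highest of its group and mouse 3 the lowest.

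Retnla (chr16:48842551-48844461, plus strand; positions here and below are of GRCm38) encodes RELM-alpha, a small secreted protein that macrophages make in response to IL-4 and IL-13. It stood at 940, 780 and 322 CPM in the WT controls and at 8.72, 5.65 and 8.19 CPM in the WT IMQ mice. The KO-labelled controls held 494, 123 and 185 CPM, and the KO-labelled IMQ mice held 38.0, 112 and 47.1 CPM. Every IMQ mouse lay below every control mouse of its own genotype label, and the 3 KO-labelled IMQ mice lay above the 3 WT IMQ mice. As a description with no test, the fitted log2 fold change with IMQ was -6.50 (SE 0.70, n = 3 against 3) in WT skin and -2.03 (SE 0.57) in KO-labelled skin, and KO-labelled IMQ stood 3.12 (SE 0.61) above WT IMQ. The KO-labelled response depends on mouse 1 of its control group, without which it was -1.23. The control groups alone were not used in the choice of Retnla. KO-labelled controls were 1.35 lower on the log2 scale (a fold change of -1.35, SE 0.55), with groups that overlap and an adjusted p of 0.730.

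Mgl2 (chr11:70130329-70137550, plus strand) encodes a galactose-type C-type lectin (CD301b) carried by dermal macrophages and a set of dermal dendritic cells. It stood at 175, 398 and 135 CPM in the WT controls and at 3.33, 6.32 and 2.42 CPM in the WT IMQ mice. In KO-labelled skin it went from 230, 96.2 and 125 CPM to 9.40, 8.94 and 8.46 CPM. Groups did not overlap in either genotype, and the 3 KO-labelled IMQ mice lay above the 3 WT IMQ mice. The log2 fold change with IMQ was -5.90 in WT skin (SE 0.54, adjusted p = 2.1e-05, edgeR) and -4.08 in KO-labelled skin (SE 0.50, adjusted p = 0.000274). Between the IMQ groups Mgl2 differed by 1.17 (SE 0.49), with an unadjusted p of 0.0338 and an adjusted p of 0.152, so the difference did not pass the test. Mgl2 shares 13.1% of its 50-base stretches with other genes, Clec10a among them, and reads on those stretches could be counted on either gene.

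Clec10a (chr11:70156197-70170834, plus strand), the neighbouring gene, encodes the related lectin CD301a. It was counted at 162, 274 and 82.1 CPM in WT controls, 79.8, 110 and 90.9 CPM in WT IMQ mice, 133, 67.1 and 92.2 CPM in KO-labelled controls, and 150, 194 and 164 CPM in KO-labelled IMQ mice. WT IMQ mice overlapped with their controls, whereas all 3 KO-labelled IMQ mice lay above both the KO-labelled controls and the WT IMQ mice. The log2 fold change was -0.88 in WT skin (SE 0.36, adjusted p = 0.0884) and 0.80 in KO-labelled skin (SE 0.36, adjusted p = 0.127), and neither passed the test. In a fit of the 6 KO-labelled mice alone the rise passed, with an adjusted p of 0.0392. Without WT control mouse 3, the WT value was -1.22 and passed with an adjusted p of 0.0119. The lectin genes thus lie side by side, with WT values of -5.90 for Mgl2 and -0.88 for Clec10a.

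Mrc1 (chr2:14229392-14332057, plus strand), the mannose receptor, was counted at 351, 787 and 157 CPM in WT controls and at 443, 558 and 431 CPM in WT IMQ mice. The KO-labelled groups held 295, 173 and 199 CPM without IMQ and 541, 754 and 938 CPM with it. In WT skin the IMQ mice lay inside the range of the controls, and the log2 fold change was 0.15 (SE 0.45, adjusted p = 0.840). In KO-labelled skin the groups did not overlap and Mrc1 rose by 1.74 (SE 0.46, adjusted p = 0.0180). Leaving out KO-labelled control mouse 2 or 3, or KO-labelled IMQ mouse 3, ended that call, with adjusted p between 0.0624 and 0.0685 and the direction kept.

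Cd163 (chr6:124304656-124330527, plus strand), the receptor that clears haemoglobin-haptoglobin complexes and also binds TWEAK, was likewise higher with IMQ in KO-labelled skin. Levels were 282, 486 and 105 CPM in WT controls, 320, 364 and 290 CPM in WT IMQ mice, 258, 171 and 200 CPM in KO-labelled controls, and 442, 630 and 540 CPM in KO-labelled IMQ mice. The 3 KO-labelled IMQ mice were above the KO-labelled controls and above the WT IMQ mice. The log2 fold change with IMQ was 0.16 (SE 0.40, adjusted p = 0.804) in WT skin and 1.36 (SE 0.41, adjusted p = 0.0306) in KO-labelled skin, where Cd163 rose. This call was lost, with adjusted p between 0.0776 and 0.0949, on leaving out KO-labelled control mouse 2 or 3 or KO-labelled IMQ mouse 2 or 3.

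Folr2 (chr7:101839988-101857194, minus strand), the macrophage folate receptor, stood at 72.0, 121 and 19.3 CPM in WT controls and at 30.9, 45.6 and 31.3 CPM in WT IMQ mice. KO-labelled skin held 34.8, 18.9 and 16.7 CPM without IMQ and 43.2, 71.9 and 72.6 CPM with it. The WT groups overlapped and the KO-labelled groups did not. The log2 fold changes of -0.98 (SE 0.51, adjusted p = 0.174) and 1.41 (SE 0.52, adjusted p = 0.0667) did not pass the test. The KO-labelled rise passed in DESeq2 (adjusted p = 0.0174) and in a fit of the 6 KO-labelled mice alone (adjusted p = 0.0130), and with no filter it was at 0.225. Without WT control mouse 3 the WT value was -1.43 and passed with an adjusted p of 0.0158. Folr2 shares 52.6% of its 50-base stretches with the antisense gene Gm10602, the highest share of any member, and reads there could be counted on either gene. Gm10602 took 373 counts over the 12 libraries.

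Lyve1 (chr7:110850607-110863239, minus strand), the hyaluronan receptor of perivascular macrophages and of lymphatic vessels, was the most variable member among WT controls, at 119, 562 and 37.0 CPM. WT IMQ mice held 63.1, 108 and 81.0 CPM, KO-labelled controls 146, 55.1 and 51.1 CPM, and KO-labelled IMQ mice 71.1, 117 and 158 CPM. All groups overlapped. The log2 fold changes with IMQ were -1.51 (SE 0.81, adjusted p = 0.192) in WT skin and 0.46 (SE 0.80, adjusted p = 0.711) in KO-labelled skin, and without WT control mouse 2 the WT value turned to 0.11. In that mouse the summed lymphatic markers were 349 CPM, inside the range of 209 to 361 CPM over all 12 mice.

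Arg1 (chr10:24915221-24927484, minus strand), the enzyme that splits arginine into ornithine and urea, rose in every IMQ mouse. WT controls held 11.9, 16.9 and 11.1 CPM and WT IMQ mice 186, 154 and 198 CPM. KO-labelled controls held 11.6, 23.3 and 22.4 CPM and KO-labelled IMQ mice 303, 116 and 174 CPM. The log2 rise was 3.75 in WT skin (SE 0.37, adjusted p = 3.9e-05) and 3.38 in KO-labelled skin (SE 0.36, adjusted p = 0.000139), 13.4-fold and 10.4-fold as fitted.

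Chil3 (chr3:106147554-106167564, minus strand) encodes the chitinase-like protein Ym1 and was low without IMQ. Its levels were 1.25, 1.98 and 0.160 CPM in WT controls, the last resting on 3 counts, and 61.7, 52.4 and 63.8 CPM in WT IMQ mice. KO-labelled controls held 1.61, 1.33 and 1.70 CPM and KO-labelled IMQ mice 49.4, 69.4 and 153 CPM. The log2 rise was 5.67 in WT skin (SE 0.58, adjusted p = 5.0e-05) and 5.86 in KO-labelled skin (SE 0.58, adjusted p = 7.3e-05). Chil3 shares 26.9% of its 50-base stretches with Chil4 and the pseudogene Gm6522, and Chil4 itself took at most 14 counts in a library. Summed neutrophil markers moved in the same mice, from between 15.6 and 78.1 CPM in the 6 controls to between 3806 and 10496 CPM in the 6 IMQ mice, and their part in the Chil3 rise was not tested.

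Adgre1 (chr17:57358691-57483527, plus strand), which encodes F4/80, was counted at 116, 204 and 59.6 CPM in WT controls and at 361, 614 and 245 CPM in WT IMQ mice. KO-labelled skin held 117, 61.5 and 90.9 CPM without IMQ and 425, 488 and 528 CPM with it. The groups did not overlap in either genotype, and the rise was 1.68 in WT skin (SE 0.43, adjusted p = 0.0130) and 2.42 in KO-labelled skin (SE 0.44, adjusted p = 0.00293). The WT call was lost at an adjusted p of 0.0524 without WT control mouse 1.

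**Figure D2:**
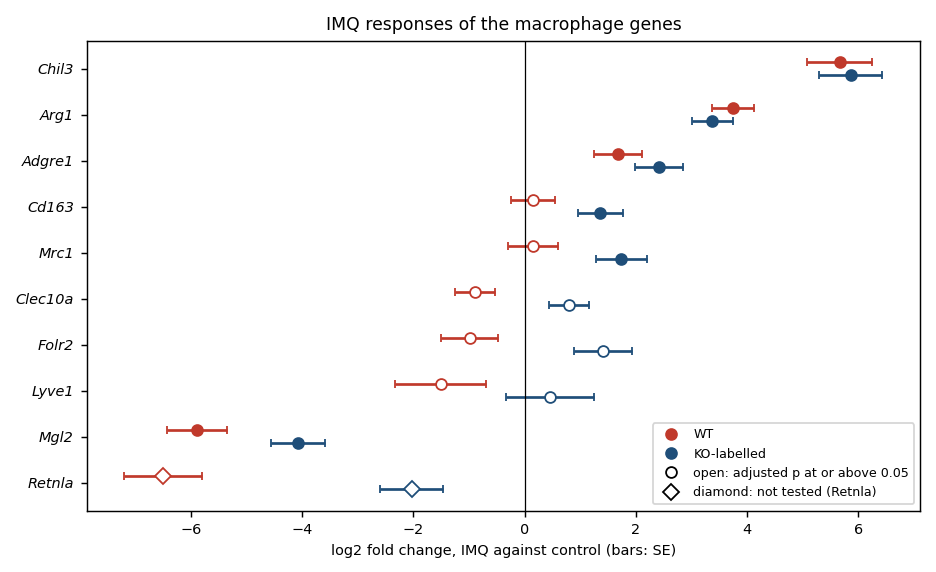
Log2 fold change with IMQ for each gene, in WT skin (red) and KO-labelled skin (blue), with bars for 1 SE. Filled points have an adjusted p under 0.05, open circles do not, and the diamonds of Retnla were not tested. Chil3, Arg1 and Adgre1 lie to the right in both genotypes, Mgl2 and Retnla to the left, and the 5 receptors between them lie further right in KO-labelled than in WT skin, with no difference between the genotypes that passed the test.

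Across the 9 tested members in KO-labelled skin, 5 rose (*Mrc1*, *Cd163*, *Arg1*, *Chil3* and *Adgre1*) and 1 fell (*Mgl2*), where 14.1% of all genes tested rose and 11.2% fell. DESeq2 called 6 higher, *Folr2* added. Groups did not overlap for 7 higher members, *Folr2* and *Clec10a* included, beside 23.1% of all genes. The rise of *Mrc1* and *Cd163* in KO-labelled but not in WT skin does not by itself show that the genotypes differ. The difference between the responses was 1.60 (SE 0.64) for *Mrc1*, with an adjusted p of 0.158, and 1.20 (SE 0.57) for *Cd163*, with an adjusted p of 0.219. It was 2.39 (SE 0.73) for *Folr2*, with an adjusted p of 0.0916, and 1.68 (SE 0.51) for *Clec10a*, with an adjusted p of 0.0913. For *Mgl2* it was 1.82 (SE 0.68), with an adjusted p of 0.125, and for *Lyve1* 1.97 (SE 1.14), with an adjusted p of 0.310. *Adgre1* at 0.73, *Chil3* at 0.20 and *Arg1* at -0.37 had adjusted p of 0.465 or more. None of the 9 passed in this fit, where 1.37% of all genes had a higher response in KO-labelled skin and 0.783% a lower one. At an unadjusted p under 0.05, *Mrc1*, *Folr2*, *Clec10a* and *Mgl2* had a higher response, 4 of 9 beside 12.3% of all genes. DESeq2 called 3 of 9, *Clec10a*, *Folr2* and *Mgl2*, and leaving out WT control mouse 3 gave 4 calls in edgeR, *Cd163*, *Clec10a*, *Folr2* and *Mrc1*. The shares of all genes called in DESeq2 and without that mouse are not given here, so these counts have no background beside them. DESeq2 also called more genes of other lists for this difference, such as 7 of 9 fibroblast genes beside 3 in edgeR. As a description, the difference for *Retnla* was 4.47 (SE 0.82).

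With both IMQ groups set side by side, all 9 tested members had a higher estimate in KO-labelled skin, and none passed the test, where 2.19% of all genes tested were higher and 2.60% lower. Their median was 0.64, beside -0.02 over all genes tested. That direction was not particular to the members. All 16 macrophage core genes described below had a higher estimate too, with a median of 0.66. So did all 9 T cell, all 9 adipocyte and all 9 fibroblast genes, while all 9 keratinocyte genes had a lower one. Groups did not overlap for *Cd163* (log2 difference 0.73, SE 0.40, adjusted p = 0.264), *Clec10a* (0.86, SE 0.36, adjusted p = 0.157) and *Mgl2*, 3 of 9, beside 16.0% of all genes. The other differences were 0.64 for *Mrc1*, 0.80 for *Folr2*, 0.46 for *Lyve1*, 0.14 for *Arg1*, 0.61 for *Chil3* and 0.24 for *Adgre1*, with overlapping groups. At an unadjusted p under 0.05, *Clec10a* and *Mgl2* were higher, 2 of 9 beside 12.5% of all genes, and DESeq2 called none of the 9. A fit of these 6 mice alone called *Cd163* and *Clec10a*, with adjusted p of 0.0293 and 0.0182, and the share of all genes called in that fit is not given here.

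Without IMQ, no member passed the test between the genotypes in edgeR or DESeq2, and only 0.00540% of all genes tested passed in each direction in edgeR. At an unadjusted p under 0.05, *Retnla*, *Folr2* (-1.59, SE 0.52) and *Clec10a* (-0.82, SE 0.36) were lower in KO-labelled controls, 3 of 10 beside 3.95% of all genes. All 10 members had overlapping groups, where 4.19% of all genes were higher and 5.18% lower without overlap. The values of *Cd163*, *Lyve1* and *Adgre1* turned from lower to higher without WT control mouse 2.

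**Figure D3:**
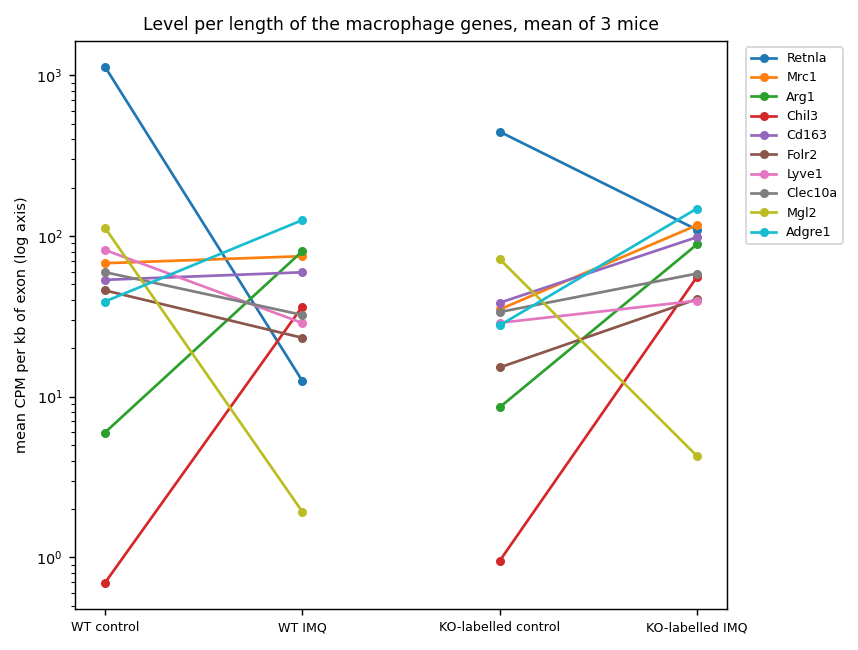
Mean level of each gene per kb of annotated exon in the 4 groups, on a log axis, with lines joining control and IMQ within a genotype label. Retnla is the highest gene in both control groups and Adgre1 in both IMQ groups, and Mgl2 is the lowest gene in both IMQ groups.

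Per kb of exon, which allows levels of different genes to be set side by side, *Retnla* led WT control skin at 1136 CPM per kb (SD 536), clear of *Mgl2* at 113 (SD 67.7). *Lyve1* at 81.9, *Mrc1* at 67.7, *Clec10a* at 59.5, *Cd163* at 53.3, *Folr2* at 45.9 and *Adgre1* at 39.1 CPM per kb followed, and from *Mgl2* to *Adgre1* the ranges of mean and SD of neighbouring genes overlapped. *Arg1* at 5.97 (SD 1.41) and *Chil3* at 0.691 (SD 0.561) were apart from them and from each other. In WT IMQ skin the order was *Adgre1* at 126, *Arg1* at 80.4, *Mrc1* at 74.9, *Cd163* at 59.4, *Chil3* at 36.3, *Clec10a* at 32.3, *Lyve1* at 28.8, *Folr2* at 23.2, *Retnla* at 12.6 and *Mgl2* at 1.92 CPM per kb. The ranges of mean and SD of neighbours were apart only between *Cd163* and *Chil3*, between *Folr2* and *Retnla*, and between *Retnla* and *Mgl2*. In KO-labelled controls *Retnla* led at 447 CPM per kb, followed by *Mgl2* at 71.9, *Cd163* at 38.4, *Mrc1* at 34.9, *Clec10a* at 33.6, *Lyve1* at 28.8, *Adgre1* at 27.8, *Folr2* at 15.2, *Arg1* at 8.57 and *Chil3* at 0.947. Only the steps from *Retnla* to *Mgl2* and from *Arg1* to *Chil3* were clear of the SDs there. In KO-labelled IMQ skin *Adgre1* at 148, *Mrc1* at 117, *Retnla* at 109, *Cd163* at 98.4, *Arg1* at 88.7, *Clec10a* at 58.4, *Chil3* at 55.6, *Folr2* at 40.5 and *Lyve1* at 39.6 CPM per kb each lay within the SDs of the next, and only *Mgl2*, at 4.27, stood apart.

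The WT control mice also differed in macrophage genes at large. The summed level of 16 macrophage core genes (such as *Csf1r*, *Cd68* and the C1q chains) was 3654, 5517 and 1755 CPM in WT controls and 3687, 6156 and 3808 CPM in WT IMQ mice. It was 2811, 1410 and 1854 CPM in KO-labelled controls and 6027, 7580 and 8112 CPM in KO-labelled IMQ mice. WT control mouse 2 was the highest and mouse 3 the lowest of their group, as for every member except *Retnla*, which was highest in mouse 1, and the KO-labelled IMQ mice were clear of their controls. Of the 16 core genes, 4 rose in WT skin, beside 14.2% of all genes. Among them were *Cd14* at a log2 fold change of 1.54 and *Itgam* at 1.56, and the median over the list was 0.31. In KO-labelled skin 15 rose, beside 14.1% of all genes, *Tyrobp* at 2.18 and *Cd68* at 2.10 among them, with a median of 1.89. The count in WT skin was 6 without WT control mouse 2 and 1 or 2 without any other WT mouse, and the count in KO-labelled skin was between 13 and 15 with a mouse left out. None of the 16 passed the test of the difference between the responses in edgeR. At an unadjusted p under 0.05, 12 had a higher response, beside 12.3% of all genes. DESeq2 called 7, and edgeR called 8 without WT control mouse 3, 4 without WT IMQ mouse 2 and 1 without KO-labelled control mouse 1. Between the IMQ groups only *Mertk*, the receptor for dying cells, passed, at 0.84 (adjusted p = 0.0495), DESeq2 called 3 of the 16, and with a mouse left out none passed except without WT IMQ mouse 2, when 3 did.

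**Figure D4:**
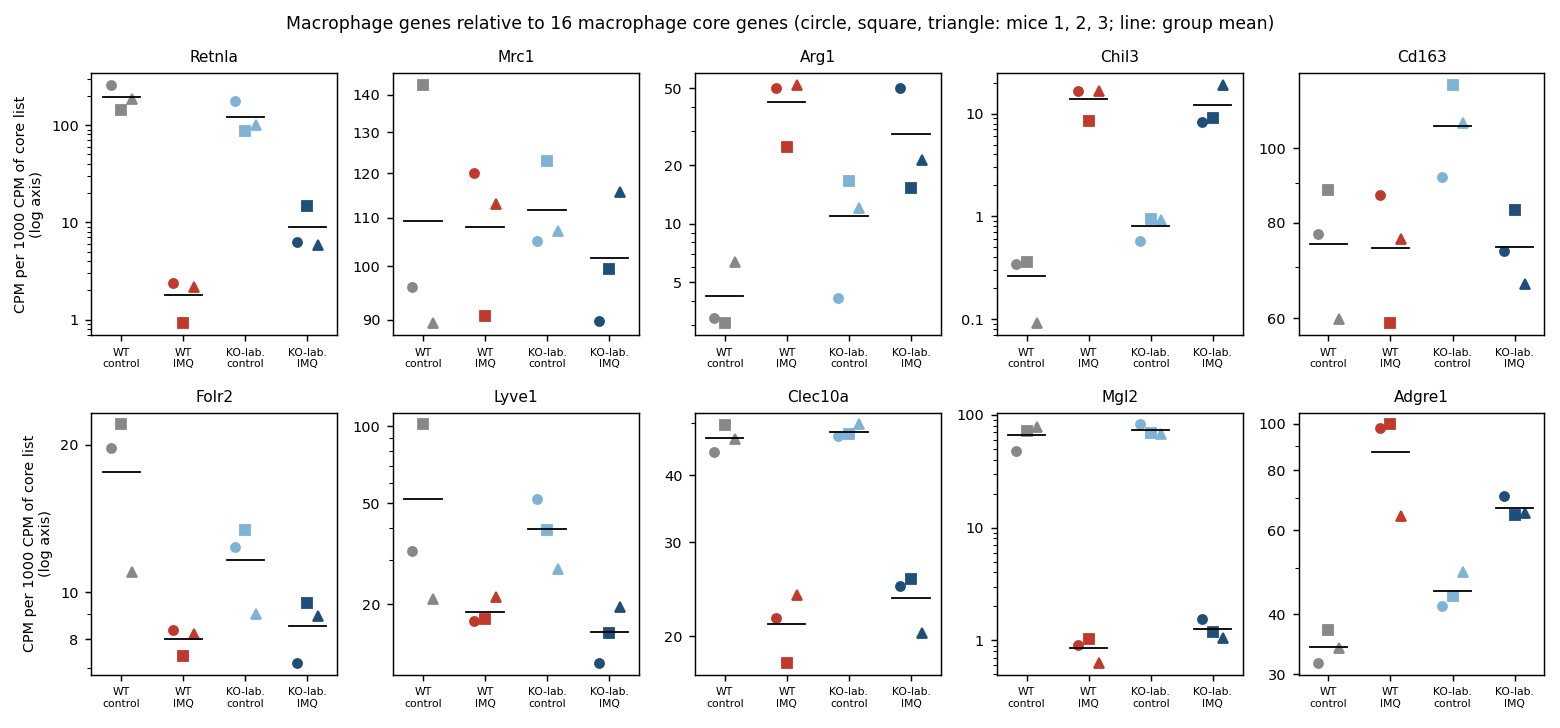
Each gene as CPM per 1000 CPM of the 16 macrophage core genes in the same mouse, on a log axis, with circles, squares and triangles for mice 1, 2 and 3 and a line at the group mean. On this scale Mrc1 stays between 89.4 and 143 in all 12 mice, Clec10a and Mgl2 are lower in all 6 IMQ mice, and Adgre1 is higher in all 6.

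Set against the core genes in the same mouse, the members had other profiles. These ratios are descriptions with no test. *Mrc1* stood at 109 (SD 29.0), 108 (SD 15.4), 112 (SD 9.75) and 102 (89.8, 99.4 and 116 in the 3 mice) CPM per 1000 core CPM in WT control, WT IMQ, KO-labelled control and KO-labelled IMQ skin, and so did not leave the level of the core genes in either genotype by more than these spreads. *Cd163* stood at 75.1 (SD 14.3), 74.0 (SD 14.0), 107 (SD 14.6) and 74.3 (SD 8.32), with the KO-labelled controls the highest group. *Clec10a* was at 46.9 (SD 2.72) in WT and 48.2 (SD 1.31) in KO-labelled controls, and at 21.1 (SD 3.03) and 23.5 (SD 2.87) in the IMQ groups, with no overlap between control and IMQ mice. So the opposite signs of its CPM responses became a fall of the same order in both genotypes on this scale, -1.15 and -1.03 on the log2 scale. *Mgl2* went from 65.7 (SD 15.6) to 0.855 (SD 0.200) in WT and from 72.6 (SD 8.11) to 1.26 (SD 0.268) in KO-labelled skin. *Folr2* ranged from 9.03 to 22.0 in the 6 controls and from 7.17 to 9.48 in the 6 IMQ mice, overlapping through KO-labelled control mouse 3. *Lyve1* ranged from 21.1 to 102 in controls and from 11.8 to 21.3 in IMQ mice.

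*Retnla* stood at 194 (SD 58.6) per 1000 core CPM in WT controls, 121 (SD 47.8) in KO-labelled controls, 1.81 (SD 0.782) in WT IMQ and 8.94 (SD 5.01) in KO-labelled IMQ skin. The KO-labelled IMQ mice stood at 6.31, 14.7 and 5.80 and the WT IMQ mice at 2.37, 0.917 and 2.15. *Retnla* was chosen by its counts in these groups, so this order is a description only. *Arg1* went from 4.21 (SD 1.84) to 42.4 (SD 15.1) in WT and from 10.9 (SD 6.27) to 29.0 (SD 18.6) in KO-labelled skin. The KO-labelled groups overlapped for *Arg1*, with IMQ mouse 2 at 15.3 below control mouse 2 at 16.5. *Chil3* went from 0.264 (SD 0.150) to 14.0 (SD 4.76) in WT and from 0.811 (SD 0.207) to 12.1 (SD 5.93) in KO-labelled skin. *Adgre1* went from 34.2 (SD 2.68) to 87.3 (SD 20.0) and from 44.8 (SD 3.81) to 66.7 (SD 3.35), and each IMQ mouse was above every control of its genotype label. Several core genes, *Lyz2*, *Itgam*, *Cd14*, *Fcer1g* and *Tyrobp* among them, are also expressed by neutrophils, whose markers rose with IMQ. With only the 3 C1q genes as the reference, the directions of *Retnla*, *Mgl2*, *Clec10a*, *Arg1*, *Chil3* and *Adgre1* were the same, and *Clec10a* stood at -0.96 in WT and -1.19 in KO-labelled skin, while the log2 ratio in WT skin turned from -0.02 to 0.21 for *Mrc1* and from -0.02 to 0.20 for *Cd163*.

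Other genes of resident dermal macrophages, 16 in the list, had few calls in WT skin and more in KO-labelled skin. In WT skin 2 rose, beside 14.2% of all genes, *Vsig4*, a complement receptor, at a log2 fold change of 2.58, and *Stab1*, a scavenger receptor, at 1.41. Another 2 fell, beside 14.3% of all genes, *Timd4*, a receptor for phosphatidylserine, at -3.26 and *Cd36*, which adipocytes and endothelium also express, at -1.08. In KO-labelled skin 8 rose and none fell, beside 14.1% and 11.2% of all genes. *Vsig4* at 3.92, *Selenop* at 1.96 and *Stab1* at 2.41 led, while *Timd4* was at -0.43 (adjusted p = 0.713). The medians were -0.07 and 1.13. At an unadjusted p under 0.05, 4 fell in WT skin and none in KO-labelled skin, and DESeq2 called 2 and none. With a mouse left out, between 4 and 10 rose in KO-labelled skin, and in WT skin between 1 and 2 rose and between 0 and 5 fell. The WT groups overlapped for *Timd4*. None of the 16 passed the test of the difference between the responses in edgeR, and DESeq2 called 5 with a higher response.

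Genes of the IL-4 and IL-13 pathway, 27 tested of 29 listed, moved both ways. In WT skin 6 rose and 7 fell, beside 14.2% and 14.3% of all genes, with a median of -0.12. *Klf4*, a transcription factor that acts with STAT6 in macrophages and also builds the epidermal barrier, rose by 1.35, the alarmin *Il33* rose by 2.96, and the eosinophil chemokine *Ccl24* was at -4.44. In KO-labelled skin 9 rose and 4 fell, beside 14.1% and 11.2% of all genes. *Klf4* at 0.84, *Il33* at 2.06 and *Tslp*, an epithelial cytokine, at 2.00 led there. The receptor and its transducer, singled out after their values were seen, rose in both genotypes, *Il4ra* by 1.77 and 1.37 and *Stat6* by 0.66 and 0.64. The cytokines themselves, singled out likewise, were low, with *Il4* at group means between 1.21 and 1.57 CPM and *Il13* between 0.126 and 0.743 CPM, and neither passed the test in any comparison. Between the IMQ groups *Klf4* at -0.54 and *Cish* at -1.12, a feedback inhibitor of cytokine signalling, were lower in KO-labelled skin, and none of the list was higher in edgeR, with 2 at an unadjusted p under 0.05 and 1 in DESeq2. The 2 lower calls became between 0 and 2 with a mouse left out.

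Genes of classical activation, 20 tested of 22, had in WT skin 9 that rose, beside 14.2% of all genes, and none that fell, with a median of 0.88. Other settings gave between 4 and 10 that rose. The acute-phase protein *Saa3* rose by 9.44, the scavenger receptor *Marco* by 3.22 and the prostaglandin synthase *Ptgs2* by 3.24, and these also have sources outside macrophages. One gene fell at an unadjusted p under 0.05, and DESeq2 called 1 lower. In KO-labelled skin 7 rose and 3 fell (between 1 and 5 fell with a mouse left out), beside 14.1% and 11.2% of all genes. *Saa3* was at 9.03, *Cxcl10* at -4.93 and *Marco* at 2.59. *Cxcl10*, an interferon-induced chemokine, was high in KO-labelled controls, at 99.7, 46.9 and 171 CPM beside 3.65, 4.64 and 5.58 CPM in WT controls, a log2 difference of 4.52 (adjusted p = 0.0132) that no longer passed without WT control mouse 1 or 2 or KO-labelled control mouse 3 (adjusted p between 0.0545 and 0.263).

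Of the axis that maintains macrophages through CSF1, IL-34 and GM-CSF, 9 genes were tested of 10. In WT skin 2 rose, both of the G-CSF system (*Csf3* and its receptor *Csf3r* at 2.52), which acts on neutrophils. In KO-labelled skin 5 rose, led by *Csf3r* at 3.68, the lineage factor *Spi1* at 2.04 and the CSF1 receptor *Csf1r* at 1.79. The ligands *Csf1* and *Il34*, singled out after their values were seen, had log2 fold changes between -0.82 and -0.08 and did not pass. Of 11 monocyte genes tested of 12, 2 rose in WT skin, among them *Thbs1* at 2.19, and 2 fell, among them *Ear2* at -4.01. In KO-labelled skin 4 rose, *Thbs1* at 1.70 among them, and 1 fell, *Ear2* at -2.56. Over all genes 14.2% rose and 14.3% fell in WT skin, and 14.1% rose and 11.2% fell in KO-labelled skin.

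Close relatives of the members moved both ways. Of 16 tested of 22 listed, 3 rose and 3 fell in WT skin, beside 14.2% and 14.3% of all genes. In KO-labelled skin 4 rose and 2 fell, beside 14.1% and 11.2% of all genes. *Chil1*, a chitinase-like relative of *Chil3*, rose by 5.41 in WT and 3.80 in KO-labelled skin, and the chitinase *Chit1* rose by 1.46 in WT skin and was at 0.09 in KO-labelled skin, with a difference that did not pass (adjusted p = 0.0574). *Asgr2*, a lectin related to *Mgl2* and *Clec10a*, was at -2.59 in WT skin. *Mrc2*, the relative of *Mrc1* carried by fibroblasts, was at 0.13 in WT and 1.41 in KO-labelled skin, and its responses differed by 1.27 (adjusted p = 0.0459). The resistin genes nearest to *Retnla*, singled out after their values were seen, moved otherwise: *Retnlg*, a neutrophil gene, rose by 3.54 and 3.64, and *Retn*, an adipocyte gene, was at -0.42 and -0.53 and did not pass.

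**Figure D5:**
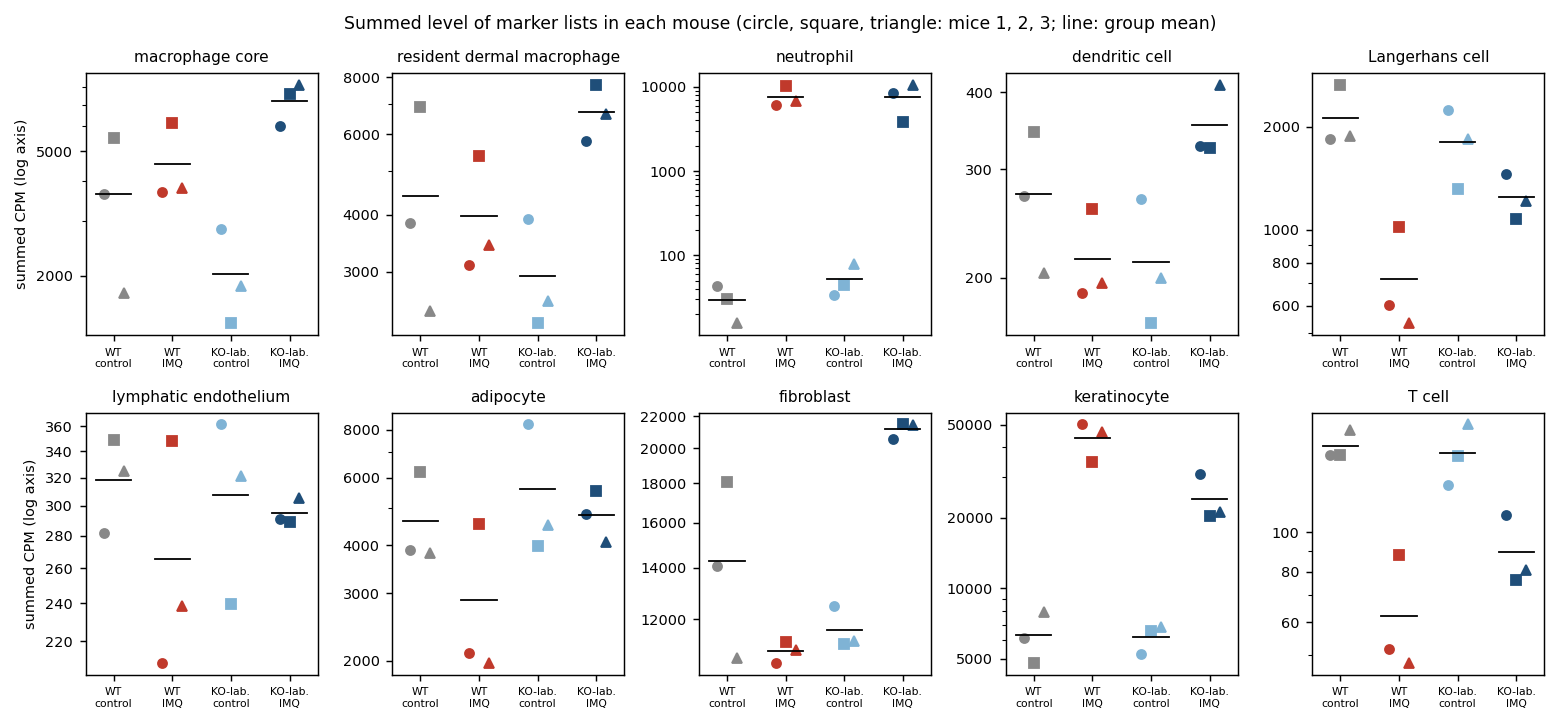
Summed CPM of marker lists in each mouse, on log axes, by group, with circles, squares and triangles for mice 1, 2 and 3 and a line at the group mean. Neutrophil and keratinocyte sums are higher in all 6 IMQ mice than in all 6 controls, the macrophage core sum separates control from IMQ only in KO-labelled skin, and the fibroblast sum is highest in the 3 KO-labelled IMQ mice.

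Markers of other cells that can carry these transcripts moved as follows, and their part in the member results was not tested. Over all genes 14.2% rose and 14.3% fell in WT skin, and 14.1% rose and 11.2% fell in KO-labelled skin. Of 9 dendritic cell genes, 3 fell in WT skin, *Cd209a* at -4.05, *Xcr1* at -4.16 and *Flt3* at -1.51, and in KO-labelled skin 2 fell (*Cd209a* at -2.50 and *Xcr1* at -3.41) and 2 rose. Their sum was between 204 and 345 CPM in WT controls, 189 and 258 in WT IMQ, 169 and 268 in KO-labelled control and 325 and 411 in KO-labelled IMQ mice. *Cd209a*, like *Mgl2*, was lower in all 6 IMQ mice than in all 6 controls. It went from between 29.3 and 67.9 CPM to between 1.65 and 8.70 CPM. The dendritic cell list as a whole did not follow *Cd209a* in KO-labelled skin. There 5 of the 9 genes had a positive log2 fold change and 4 a negative one, with a median of 0.0062. The sum also went up with IMQ in that genotype, without overlap. In WT skin 8 of the 9 were negative, with a median of -0.75, and the sums overlapped. Of 6 Langerhans cell genes, 2 fell in WT skin (*Cd207* at -2.45 and *Cd74* at -2.55) and 2 in KO-labelled skin (*Cd207* at -2.53 and *Epcam* at -1.34). Their sum was between 1840 and 2644 CPM in WT controls, 532 and 1016 in WT IMQ, 1319 and 2243 in KO-labelled control and 1077 and 1454 in KO-labelled IMQ mice.

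Of 8 lymphatic genes, 1 rose in WT skin, *Nts* at 2.71, and 1 fell in KO-labelled skin, *Tbx1* at -1.75, and the defining gene *Prox1* did not pass in either. Of 9 neutrophil genes tested of 10, 8 rose in WT skin and 9 in KO-labelled skin, with *S100a9* at 9.40 and 7.68, *S100a8* at 9.25 and 8.03 and *Mmp8* at 5.11 and 5.15. *S100a8* and *S100a9* are also keratinocyte genes in inflamed epidermis, and they make up most of that sum. Of 8 eosinophil genes 3 were tested and 1 fell in WT skin, *Ccr3* at -3.71, while the defining gene *Epx* was at or near 0 in all mice. Of 9 keratinocyte genes 9 rose in WT and 7 in KO-labelled skin, and 2 were lower in KO-labelled than in WT IMQ skin, beside 2.60% of all genes. Of 9 adipocyte genes 1 fell in each genotype, and their sum was between 1977 and 8262 CPM over all mice. Of 9 fibroblast genes 5 fell in WT skin and 4 rose in KO-labelled skin. Between the IMQ groups 3 were higher in KO-labelled skin, beside 2.19% of all genes: *Col1a1* at 1.23, *Col1a2* at 1.06 and *Col3a1* at 1.01. Their adjusted p were between 0.0215 and 0.0349 in edgeR. Without WT IMQ mouse 1 these 3 did not pass (adjusted p between 0.130 and 0.163), and *Col3a1* also did not pass without WT IMQ mouse 3 (0.124). Blood endothelium (2 and 5 of 7 genes higher), mast cells (2 and 5 of 8 higher), T cells (5 of 9 lower in WT skin, 1 higher and 1 lower in KO-labelled skin) and skeletal muscle (6 and 4 of 8 lower) also changed with IMQ in WT and KO-labelled skin, respectively.

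Genes whose pattern over the 12 mice was most like that of 3 members were named by the correlation of log2 CPM among 15973 genes, a description with no p, over mice that share their groups. For *Retnla* they were *Gm16118*, *Grb14*, *Atp6v0e2*, *Asb10* and *Tbx15*, with r between 0.959 and 0.963 but log2 profiles that differed from it by between 1.65 and 2.08 (root mean square), since *Retnla* moved over a wider range. For *Cd163* they were *Nhsl2*, *Tlr5*, *Iqgap2* and *Ceacam1*, with r between 0.965 and 0.968 and differences between 0.18 and 0.30. For *Chil3* they were *Klk12*, *Hipk1*, *Clec4d*, *Saa3* and *Tut7*, with r between 0.983 and 0.984 but differences between 0.93 (*Clec4d*) and 2.64 (*Hipk1*).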

How the data were processed

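Skin RNA of 12 mice was sequenced by the authors as paired reads of 150 bp, and the deposited values are raw counts per Ensembl gene in each library, without normalization. The labels' processing notes name HISAT and the build mm8 without a role, and the counter is not given in the sources used here. Names and positions came from GENCODE M21 (GRCm38), which holds 52073 of 56923 identifiers, and unnamed identifiers took 0.567% of counts. No coordinates of the files were used. The library protocol is not stated to be stranded.

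Counts were scaled by TMM and fitted in edgeR 4.0.16 (R 4.3.3, limma 3.58.1) with 4 group means over 12 mice, robust quasi-likelihood and filterByExpr (minimum count 10, minimum total 15), which left 18529 genes. The common biological coefficient of variation was 0.253. A change was called where the p, adjusted by Benjamini-Hochberg across all tested genes, was under 0.05. SEs were derived from the F statistic. CPM per kb used the union of annotated exons. The 50-base stretches that members share with other genes were counted in GENCODE transcripts. Of the other lists, at most the 3 genes with the smallest adjusted p in a comparison are named, others being marked as singled out. The members and lists were chosen with earlier results of these data known. *Retnla* was left untested also in WT IMQ against WT control, which is stricter than the design written at the start, because WT IMQ entered its choice.

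Alternatives were DESeq2 1.42.0, RLE scaling, no filter, at least 10 counts in every library, the compared mice alone, a replicate block and each mouse left out in turn. Same-numbered mice are different animals, and the main model leaves the numbers out. The edgeR, DESeq2 and replicate-block fits were first run on simulated counts with a set change in WT IMQ, for WT IMQ against WT control. The other comparisons and the descriptive measures were not run on simulated counts. Floors cover counting error only. No library was a duplicate of another in its group, and pairs across groups were not checked. Some genes of these lists are not reported here by name. The study's other assays were not analysed here.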

Additional observations from a re-analysis of the deposited data

Results flagged for a closer look

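*Folr2* and *Clec10a* lay on opposite sides of the control means: every WT IMQ mouse was below the mean of the WT controls and every KO-labelled IMQ mouse above that of the KO-labelled controls. This rule was applied to the members alone, and how many of all genes meet it was not counted. The WT groups overlapped for both genes, and no change within a genotype passed in the fit of all 12 mice. Between the controls the log2 fold changes were -1.59 for *Folr2* and -0.82 for *Clec10a*, and neither passed. Relative to the core genes both were lower with IMQ in both genotypes, *Folr2* at -1.13 in WT and -0.44 in KO-labelled skin and *Clec10a* at -1.15 and -1.03. The differences of the log2 responses were 2.39 for *Folr2* and 1.68 for *Clec10a*, with adjusted p of 0.0916 and 0.0913 in edgeR, so neither passed. DESeq2 called both, with adjusted p of 0.0114 and 0.0186.

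The responses of 5 genes outside the members differed between the genotypes at an adjusted p under 0.05 (edgeR): *Cxcl10* by -4.06, *Mrc2* by 1.27, *Col1a1* by 1.37, *Col1a2* by 1.31 and *Col3a1* by 1.36 on the log2 scale. *Cxcl10* was at 3.91, 4.79 and 1.74 CPM in KO-labelled IMQ mice and at 2.36, 3.63 and 1.69 CPM in WT IMQ mice, so its difference rests on the KO-labelled controls. *Mrc2* was at 92.6, 112 and 98.8 CPM in KO-labelled IMQ mice and between 35.0 and 75.9 CPM in the other 9 mice. With a mouse left out, adjusted p was between 0.0188 and 0.0861 for *Cxcl10*, between 0.0119 and 0.142 for *Mrc2* and between 0.00898 and 0.0988 for *Col1a1* and *Col1a2*, so each call, that of *Col3a1* included, was lost without some mice, and DESeq2 called all 5.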

How the results depend on the processing

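Member counts kept their size, within 1.5 times, under RLE scaling, and other settings moved them as follows. Of the 9 tested members, those higher with IMQ in KO-labelled skin went from 5 to 3 without a filter, 4 with at least 10 counts in every library, 6 in DESeq2, 7 with only the compared mice and between 3 and 5 with a mouse left out. Those higher in WT skin went from 3 to 2 without a filter and with at least 10 counts in every library, where *Chil3* was not tested. Those lower in WT skin went from 1 to between 1 and 3 with a mouse left out. Those higher in KO-labelled than in WT IMQ skin went from 0 to 2 with only the compared mice. Those with a higher response in KO-labelled skin went from 0 to 3 in DESeq2 and to between 0 and 4 with a mouse left out. No share of all genes is given for these settings, for the members or the other lists, so such counts have no background beside them. Relative to C1q genes alone, *Clec10a* moved from -1.15 to -0.96 in WT and from -1.03 to -1.19 in KO-labelled skin, and the sign turned for *Mrc1* (to 0.21) and *Cd163* (to 0.20) in WT skin and for *Cd163* between IMQ groups (to -0.078).

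Directions of fold changes turned only with a mouse left out, and none of the turned values passed the test. In WT skin, leaving out a mouse gave *Mrc1* between -0.26 and 0.91, *Cd163* between -0.25 and 0.75 and *Lyve1* between -2.02 and 0.11, with WT control mouse 3 left out at the low end of each and mouse 2 at the high end. Between IMQ groups *Arg1* was between -0.30 (without KO-labelled IMQ mouse 1) and 0.42 (mouse 2), and *Adgre1* between -0.022 (without WT IMQ mouse 3) and 0.67 (mouse 2). Between controls *Chil3* was between -0.057 and 1.11, *Cd163* between -0.87 and 0.14, *Lyve1* between -2.17 and 0.14 and *Adgre1* between -0.83 and 0.064, all at the high end without WT control mouse 2. The difference of responses for *Chil3* was between -0.47 (without WT control mouse 2) and 0.67 (mouse 3), and -0.42 without KO-labelled IMQ mouse 3. Without a filter, *Adgre1* in WT skin (adjusted p = 0.0696) and *Mrc1* (0.0860) and *Cd163* (0.124) in KO-labelled skin lost their calls, with more genes in the adjustment.

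With the replicate number as a block, 5 members rose in KO-labelled and 3 in WT skin, as without it, and no call of a member changed, while the 5 differing responses of genes outside the members no longer passed (adjusted p between 0.0587 and 0.0916). Same-numbered mice had a mean correlation of deviations of -0.051, 1 of 18 pairs was over 0.1, and 4 of 12 mice correlated best with their own number. With 3 mice a group, the SEs of the IMQ responses of the 5 receptors *Mrc1*, *Cd163*, *Folr2*, *Lyve1* and *Clec10a* were between 0.36 and 0.81 log2 units.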

Other observations

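Other genes of the lists were lower with IMQ beside *Mgl2* and *Retnla*. *Ear2*, a ribonuclease of monocytes and eosinophils, went from between 50.8 and 77.5 CPM to between 2.06 and 6.65 CPM in WT skin and from between 20.0 and 59.2 CPM to 5.68, 5.50 and 8.99 CPM in KO-labelled skin. *Ccl24* went from between 7.55 and 44.7 CPM to between 0.630 and 1.68 CPM in WT skin, and from between 5.01 and 11.0 CPM to between 0.977 and 2.16 CPM in KO-labelled skin. *Alox15*, the lipoxygenase that IL-4 and IL-13 induce, singled out after its values were seen, was at 7.81, 15.2 and 3.62 CPM in WT controls and at 1.39, 0.202 and 0.969 CPM in WT IMQ mice, and its log2 fold change of -1.36 in KO-labelled skin did not pass (adjusted p = 0.0959).

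*Timd4* was at 9.61, 29.9 and 1.81 CPM in WT controls, where mouse 2 was high and mouse 3 low as for *Lyve1*, and at 1.09, 2.49 and 0.823 CPM in WT IMQ mice. *Krt16*, a stress keratin used to gauge the epidermal response, was between 3401 and 6536 CPM in WT IMQ mice and between 1564 and 2612 CPM in KO-labelled IMQ mice, which do not overlap.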
